A study of Mus musculus with 6 samples.

Results

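Ion channels and ligand-gated receptors are membrane proteins that let potassium, sodium, calcium, chloride or protons pass when voltage, a ligand, calcium or a mechanical stimulus opens them. They were followed here in RAW 264.7 cells (the labels also write RAW 264.4), an established line of mouse macrophages that came from a tumour induced by a virus. Genes were taken by symbol alone, from families that begin with Kcn, Scn, Cacn, Clcn, Clic, Trpc, Trpm, Trpv, Ryr, Gabr, Gria, Grik, Grin, Grid, Chrn, Glra, Glrb, P2rx, Hvcn, Orai, Stim, Asic, Cnga, Cngb and Hcn and the rule itself uses no measured value. The rule found 172 genes on 294 of the 16281 probes of the array, and 147 of these genes were measured on all 6 arrays. Cells received bacterial endotoxin (lipopolysaccharide, LPS) at 100 ng/ml together with its carrier, LPS-binding protein (LBP), at 100 pM. After 4 h their total RNA was hybridised against RNA of untreated cells cultured for the same time. Both came from the same line, and no other agent or genotype is named. Treated RNA carried the red dye Cy5 on 3 arrays and the green dye Cy3 on the other 3, and within each orientation the labels give set numbers from 1 to 3. Whether sets came from separate cultures is not stated, so a p-value measures only how these samples spread, and that spread may be technical.

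LPS is sensed by macrophages through Toll-like receptor 4. In these cells potassium channels set the membrane potential and with it the drive for calcium entry, and P2X receptors open when extracellular ATP binds. Potassium efflux through such channels is a known trigger of the NLRP3 inflammasome, which releases interleukin-1β. Proton and chloride channels balance the charge that the NADPH oxidase and the acidifying pumps of endosomes move. Most of the voltage-gated and transmitter-gated families are best known from neurons and muscle.

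Each value is a log2 ratio, treated over untreated, and each gene's change is the mean ± SD over 3 sets (n = 3), a set being the mean of its 2 dye orientations. A gene is called here when its adjusted p lies below 0.05 in limma, a linear model fitted over all features. The direction is the likely one, since the labels name Cy5 the test channel and the value table states no direction. With the ratio read this way, 2 genes known to respond to LPS lay above 0, Il1b at 4.17 ± 0.055 and Tnf at 2.08 ± 0.18. A reversed ratio would turn every sign given below. The table holds ratios and no intensities, so it gives no level of any channel, cannot show which of them these cells express, and holds no order of expression between genes. In bulk RNA, a change per cell and a change in the share of cells with the RNA cannot be told apart.

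The channel genes moved little. Of 147, 11 were higher and 9 lower after LPS and LBP, 20 in all (13.6%), whereas 29.0% of the 11364 features tested were called (1586 higher and 1708 lower). The median size of change was 0.044 among channel genes and 0.083 over all features. Within 0.1 of no change lay 116 channel genes (78.9%), against 56.7% of all features. Uncalled channel genes spanned -0.12 to 0.18, and the smallest called change was 0.15 in size. Only Grina and Clic4 were called with a change of at least 1.5-fold, and 0 channel genes were called against a 1.5-fold change by limma's treat test, which called 2.60% of all features. A called change of at least 2-fold was seen in 0 channel genes and in 2.03% of all features. By the ordinary test 26 channel genes had an unadjusted p below 0.05, as had 38.4% of all features.

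**Figure D1:**
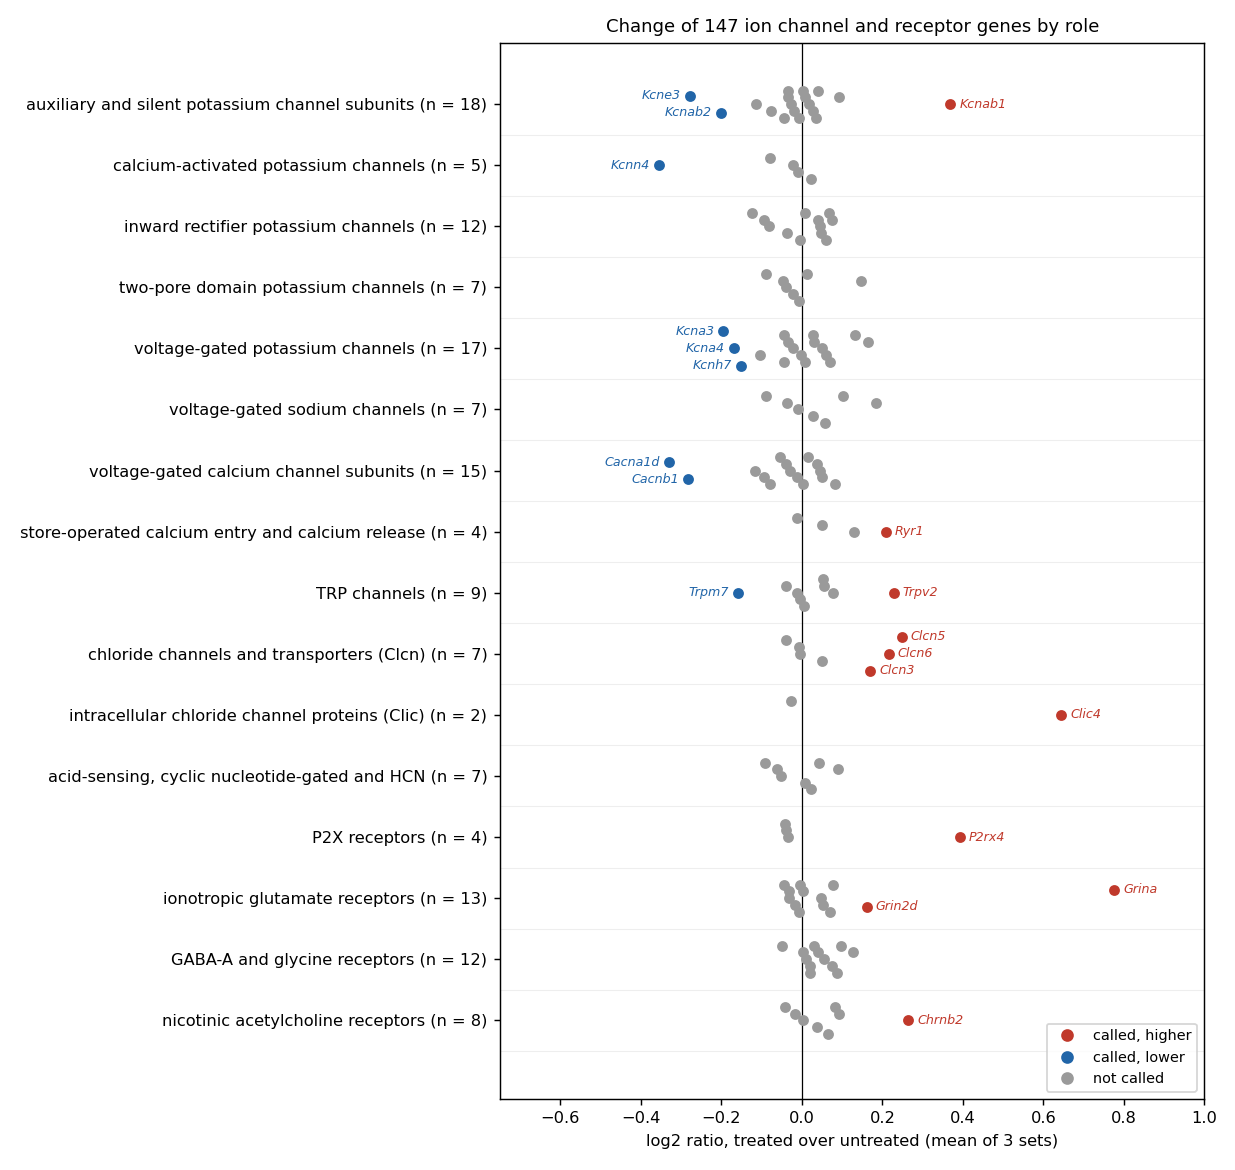
Each point is 1 of the 147 channel genes, placed by its log2 ratio of treated over untreated RNA (mean of 3 sets) on the horizontal axis and by role on the vertical axis, with called genes in red (higher) or blue (lower). Grina and Clic4 stand farthest to the right, the 3 called voltage-gated potassium channel genes all lie to the left, and 5 roles have no called gene.

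Both dye orientations had to be read for each gene. Only 10 of the 20 called channel genes (50%) had the same sign on all 6 arrays, compared with 76.6% of all called features. Called with the same sign on all 6 arrays were thus 10 of 147 channel genes, and 22.2% of all features. These were Grina, Clic4, P2rx4, Chrnb2, Clcn5, Trpv2 and Clcn3, which rose, and Kcnn4, Cacna1d and Kcnh7, which fell. Grina, Clic4, P2rx4 and Kcnn4 kept their call under every alternative run other than the test against a 1.5-fold change. When the 6 arrays were fitted without set numbers, 10 channel genes were called higher and 4 lower, so the 9 falls shrank to 4.

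**Figure D2:**
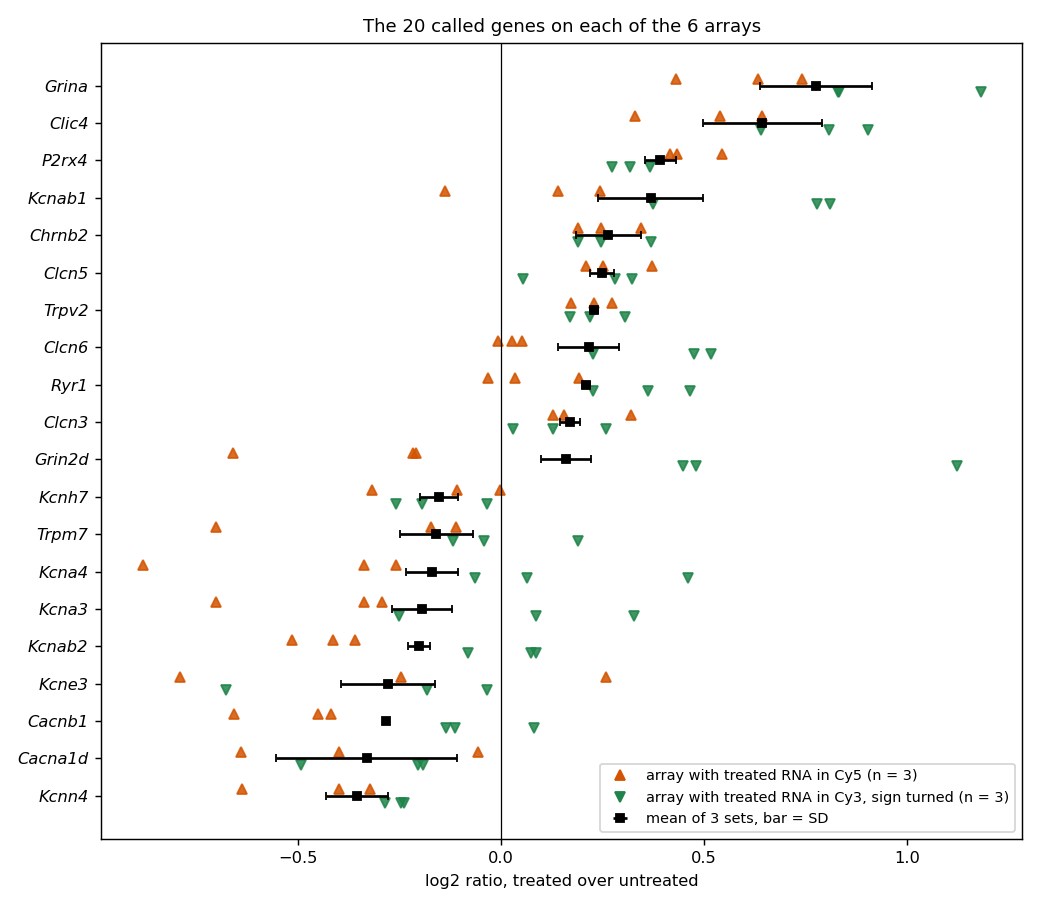
Log2 ratios of treated over untreated RNA (horizontal axis) for the 20 called channel genes (vertical axis), with 1 triangle per array by dye orientation and the mean of 3 sets with its SD in black. The orientations of Trpv2 and Chrnb2 overlap and those of P2rx4 both lie above 0, whereas the orientations of Grin2d lie on opposite sides of 0.

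Promoters of 3 of the genes that kept their call are printed here, as the 250 bases before the start of the transcript on the sense strand, because they show a riser and a faller with a match to the same inflammatory motif and a riser with none. They come from RefSeq on GRCm38.p6. Clic4 lies at chr4:135272761-135273010 (minus strand), Kcnn4 at chr7:24370013-24370262 (plus strand) and P2rx4 at chr5:122707294-122707543 (plus strand). Capitals mark matches to the NF-κB consensus.

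Clic4: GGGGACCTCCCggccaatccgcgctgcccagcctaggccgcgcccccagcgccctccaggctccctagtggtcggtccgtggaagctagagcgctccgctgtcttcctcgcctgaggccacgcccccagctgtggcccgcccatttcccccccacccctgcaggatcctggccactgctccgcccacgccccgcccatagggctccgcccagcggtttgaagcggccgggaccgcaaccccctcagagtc
Kcnn4: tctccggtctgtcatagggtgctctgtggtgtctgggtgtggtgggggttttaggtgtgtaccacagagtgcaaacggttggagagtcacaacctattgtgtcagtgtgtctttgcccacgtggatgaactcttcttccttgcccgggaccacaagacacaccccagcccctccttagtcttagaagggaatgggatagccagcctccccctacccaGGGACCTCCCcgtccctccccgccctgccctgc
P2rx4: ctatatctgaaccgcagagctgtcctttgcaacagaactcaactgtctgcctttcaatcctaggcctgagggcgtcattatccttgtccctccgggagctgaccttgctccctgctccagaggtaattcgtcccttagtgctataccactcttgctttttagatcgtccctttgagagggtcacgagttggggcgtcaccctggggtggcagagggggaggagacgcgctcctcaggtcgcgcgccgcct

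The match in Clic4 begins 250 bases before the start, at the edge of the window, where overlapping matches run together. In Kcnn4 it begins 33 bases before the start. Trpv2 also had a match, 120 bases before the start of the third of its listed transcripts. Over all 32851 promoters of this length, 7.25% held the NF-κB consensus on either strand. Of the 30 promoters listed for 19 called channel genes 3 did, each of a different gene. The P2rx4 window held no match to the NF-κB consensus, to the interferon-stimulated response element (GAAA, 2 bases of any kind and GAAA again, in 2.98% of all promoters), to the GAS element (TTCNNNGAA, 7.02%) or to the AP-1 element (TGANTCA, 6.75%). Kcnab1 matched the interferon element and the GAS element, and Kcne3 the AP-1 element. A match describes letters and shows no binding.

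Among ligand-gated channels, P2rx4, the ATP-gated cation channel found on the plasma membrane and lysosomes of macrophages, rose. With treated RNA in Cy5 it read 0.42, 0.43 and 0.54 in sets 1 to 3, and with treated RNA in Cy3 0.37, 0.27 and 0.32. All 6 arrays were above 0, and those with treated RNA in Cy5 were higher in every set, with orientation means of 0.46 and 0.32. Its change was 0.39 ± 0.038 (limma adjusted p = 4.24e-04), and both of its probes measured on all 6 arrays were called, at 0.37 and 0.42. The other 3 P2X genes measured, P2rx1, P2rx6 and P2rx7, were not called. P2rx7, the ATP receptor best known for activating the inflammasome, read from -0.38 to 0.26 over the 6 arrays, 3 of them above 0 and 3 below. It stood at -0.042 ± 0.18 (adjusted p = 0.710), with an SD between sets well above that of P2rx4.

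Grina had the largest change of all 147 genes. Its symbol places it with the NMDA receptors, but the protein is a membrane protein of the endoplasmic reticulum and Golgi that was named for an association with them and is no subunit. The arrays with treated RNA in Cy5 read 0.43, 0.63 and 0.74 and those with treated RNA in Cy3 0.83, 1.18 and 0.83, all above 0 and higher in the second orientation in every set. The mean was 0.78 ± 0.14 (1.71-fold, adjusted p = 6.86e-05). Of the other 12 glutamate receptor genes only Grin2d, an NMDA receptor subunit, was called, at 0.16 ± 0.061 (adjusted p = 0.0333). Grin2d read -0.21, -0.66 and -0.22 with treated RNA in Cy5 and 0.45, 1.12 and 0.48 with treated RNA in Cy3. Its orientations did not overlap and had opposite signs, its direction turned with treated RNA in Cy5 alone (-0.36), and the call was lost without any 1 of the sets (0.18, 0.13 and 0.18 without sets 1, 2 and 3, adjusted p from 0.0664 to 0.209). Uncalled members included the kainate receptor subunits Grik5 (0.078 ± 0.025) and Grik2 (0.071 ± 0.17).

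Nicotinic receptors are opened by acetylcholine. Chrnb2, a β subunit of the neuronal type, was the 1 of 8 called (12.5%, against 29.0% of all features), and it rose. It read 0.19, 0.35 and 0.25 with treated RNA in Cy5 and 0.25, 0.37 and 0.19 with treated RNA in Cy3, above 0 throughout, and its mean was 0.26 ± 0.080 (adjusted p = 0.00503). Chrna7, the subunit known for the cholinergic control of macrophage cytokines, read from -0.20 to 0.36 and stood at 0.066 ± 0.16 (adjusted p = 0.508). Chrna6 (0.093 ± 0.063) and Chrnb3 (0.082 ± 0.036) were the largest of the other uncalled subunits. Of 12 GABA-A and glycine receptor genes, the inhibitory chloride channels of neurons, 0 were called by limma. Their changes lay between -0.051 (Gabrb2) and 0.13 (Glra1). An unadjusted p below 0.05 was found for 1 of them and for 38.4% of all features.

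Among chloride channel genes, those called by their gene mean were all higher. Clic4, a protein that shifts between a soluble form and membranes, read 0.54, 0.64 and 0.33 with treated RNA in Cy5 and 0.81, 0.90 and 0.64 with treated RNA in Cy3. Every array was above 0, and in each set the second orientation was higher. The change was 0.64 ± 0.15 (1.56-fold, adjusted p = 1.98e-04), while Clic5, the other Clic gene measured, stood at -0.027 ± 0.079.

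The Clcn family comprises plasma membrane chloride channels and the chloride-proton exchangers of endosomes and lysosomes. Of its 7 genes, 3 rose and 0 fell (42.9% called, against 29.0% of all features). All 3 belong to the endosomal and lysosomal branch, but Clcn4 and Clcn7 of the same branch were not called. Clcn4 stood at -0.0039 ± 0.063 (adjusted p = 0.962). Clcn5, the exchanger of early endosomes, read 0.25, 0.37 and 0.21 and 0.28, 0.055 and 0.32 in the 2 orientations, above 0 on all 6 arrays, with a mean of 0.25 ± 0.030 (adjusted p = 0.00368). Clcn3 stood at 0.17 ± 0.026 (adjusted p = 0.0195), also with all arrays above 0, but without set 1 (0.17, adjusted p = 0.0839) or set 2 (0.16, adjusted p = 0.0936) it was not called. Clcn6, of late endosomes, read between -0.0081 and 0.053 with treated RNA in Cy5 and 0.48, 0.52 and 0.23 with treated RNA in Cy3. Its mean was 0.22 ± 0.076 (adjusted p = 0.0119), and without set 1 it was 0.19 (adjusted p = 0.0561). Both Clcn6 probes were called, 1 at 0.23 (adjusted p = 0.0192) with all 6 arrays above 0 and the other at 0.20 (adjusted p = 0.0120) with its orientations on opposite sides of 0. Clcn7, the exchanger of lysosomes and of the osteoclast's resorbing membrane, stood at -0.038 ± 0.082, although 1 of its probes was called lower at -0.18 (adjusted p = 0.0374), and the muscle channel gene Clcn1 at 0.051 ± 0.058.

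Calcium-permeable channels moved both ways. Trpv2, a cation channel known from macrophage phagocytosis, rose by 0.23 ± 0.010 (adjusted p = 0.00494). It read 0.27, 0.17 and 0.23 with treated RNA in Cy5 and 0.17, 0.31 and 0.22 with treated RNA in Cy3, so the orientations overlapped. Trpm7, a channel joined to a kinase that carries magnesium and calcium, was called lower at -0.16 ± 0.091 (adjusted p = 0.0487). Its arrays read -0.11, -0.70 and -0.17 and, in the other orientation, -0.041, 0.19 and -0.12, and set 2 held both extremes. Trpm7 was no longer called without set 2 (-0.11, adjusted p = 0.288), without set 3 (-0.17, adjusted p = 0.113) or after quantile normalization (-0.14, adjusted p = 0.0574). The other 7 TRP symbols were not called, with Trpm5 (0.078 ± 0.091) and Trpc5 (0.055 ± 0.080) the largest.

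Ryanodine receptors release calcium from the endoplasmic reticulum. Ryr1, the skeletal muscle type, was called at 0.21 ± 0.0096 (adjusted p = 0.00757). The small SD of its set means hid a gap between orientations, with means of 0.065 for treated RNA in Cy5 and 0.35 in Cy3. With treated RNA in Cy5 alone Ryr1 was not called (adjusted p = 0.548). Its probes also differed: 1 was called at 0.39, and 1 stood at 0.024 with its orientations on opposite sides. Ryr2, the cardiac type, stood at 0.13 ± 0.11 and was called without set 2 (0.19, adjusted p = 0.0414), and Ryr3 stood at 0.050 ± 0.037. Stim1, the calcium sensor that opens store-operated channels, read from -0.15 to 0.14 over the arrays and stood at -0.013 ± 0.091 (adjusted p = 0.882). No probe carried the symbols Stim2 or Orai1, so the store-operated pore itself was not analysed here.

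Voltage-gated calcium channel subunits fell where they were called, 2 of 15 (13.3%, against 29.0% of all features called). Cacna1d, the pore of an L-type channel, read -0.40, -0.056 and -0.64 with treated RNA in Cy5 and -0.20, -0.19 and -0.49 with treated RNA in Cy3. All 6 were below 0, but set 3 lay lowest in both orientations. The mean was -0.33 ± 0.22 (adjusted p = 0.0174), and without set 3 it was -0.21 and not called (adjusted p = 0.0612). Cacnb1, a β subunit that carries the pore to the membrane, was at -0.28 ± 0.0053 (adjusted p = 0.00179), with both probes called. Its Cy5 arrays read -0.42, -0.66 and -0.45 and its Cy3 arrays -0.14, 0.081 and -0.11, so the small SD of the set means hid a wide gap between orientations. Cacna2d2 had probes called in opposite directions (-0.18 and 0.18) and a gene mean of 0.0018. Cacna1f (-0.12 ± 0.16) and Cacna2d1 (-0.095 ± 0.087) were the largest uncalled subunits. All 7 measured voltage-gated sodium channel genes stayed uncalled by limma, and 1 had an unadjusted p below 0.05, as had 38.4% of all features. Scn7a came closest at 0.18 ± 0.14 (adjusted p = 0.0548), and it was called without set 1 (0.23, adjusted p = 0.0366) and after quantile normalization (0.17, adjusted p = 0.0466), while Scn1a stood at 0.10 ± 0.051.

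Potassium channel symbols made up the largest block, with 59 genes in 5 roles, of which 1 rose and 6 fell. These 7 of 59 are a smaller share than the 29.0% of all features called (1586 higher and 1708 lower of 11364). Of the 6 falls, Kcne3, Kcna3, Kcna4 and Kcnh7 lost the call when the arrays were fitted without set numbers or with the set as a random block, and Kcnn4 and Kcnab2 kept it. Kcnn4, the calcium-activated channel that hyperpolarises macrophages and lymphocytes during calcium signals, was the clearest fall. It read -0.32, -0.64 and -0.40 with treated RNA in Cy5 and -0.29, -0.25 and -0.24 with treated RNA in Cy3, all below 0. Its change was -0.36 ± 0.076 (adjusted p = 0.00112), and its probes were both called, at -0.36 and -0.35. Of the other 4 calcium-activated channel genes, Kcnn1 (-0.080 ± 0.15) and Kcnma1 (-0.023 ± 0.069) had the largest changes and were not called.

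Kcna3, the voltage-gated channel that works beside Kcnn4 in T cells and macrophages, was called at -0.19 ± 0.074 (adjusted p = 0.0176). It read -0.34, -0.70 and -0.29 with treated RNA in Cy5, whereas the other orientation read 0.087, 0.33 and -0.25. With treated RNA in Cy3 alone Kcna3 was at 0.054, and without set 3 it was at -0.16 and not called (adjusted p = 0.0703). Of the 2 Kcna3 probes, 1 was called at -0.24 (adjusted p = 0.00684), and the other, at -0.15, was not (adjusted p = 0.0948). Kcna4, a fast-inactivating relative, was at -0.17 ± 0.064 (adjusted p = 0.0276), with -0.26, -0.88 and -0.34 in 1 orientation and 0.065, 0.46 and -0.064 in the other. Kcna4 turned to 0.15 with treated RNA in Cy3 alone and lost its call without set 2 (-0.15, adjusted p = 0.122) or set 3 (-0.15, adjusted p = 0.0941). Kcnh7, of the ether-à-go-go-related family, had all arrays at or below -0.00135 and a mean of -0.15 ± 0.048 (adjusted p = 0.0353). Only 1 of its 2 probes was called (-0.31), with 1 array above 0 (0.087). The other probe stood at 0.00071, above 0 on the arrays with treated RNA in Cy5 and below 0 on those in Cy3. The same sign on all 6 arrays was thus seen only in the mean of both probes. The call of the gene was lost without set 1 (-0.14, adjusted p = 0.171) or set 2 (-0.14, adjusted p = 0.148). Among the 14 uncalled voltage-gated potassium channel genes, Kcna2 stood at 0.16 ± 0.26, and without set 1 it was called at 0.31 (adjusted p = 0.00382). Kcnd1 stood at 0.13 ± 0.080.

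The role of auxiliary and silent potassium channel subunits gave 1 rise and 2 falls among 18 symbols (16.7%, against 29.0% of all features). Auxiliary subunits bind the pores and set their gating or transport. The role also holds silent subunits such as Kcns1 and the antisense transcripts Kcnmb4os1 and Kcnmb4os2. Kcnab1, a cytoplasmic β subunit of the Kcna channels, was called at 0.37 ± 0.13 (adjusted p = 0.00239), with 0.14, -0.14 and 0.24 in 1 orientation and 0.37, 0.81 and 0.78 in the other. One probe of Kcnab1 gave 0.65 and was called, and the other gave 0.091 and was not. Kcnab2, its close relative, was called lower at -0.20 ± 0.027 (adjusted p = 0.00951), from -0.41, -0.52 and -0.36 with treated RNA in Cy5 and 0.073, 0.087 and -0.080 with treated RNA in Cy3, where the mean turned to 0.027. Of the 2 Kcnab2 probes, 1 was called at -0.28 (adjusted p = 0.00641), and the other, at -0.12, was not (adjusted p = 0.0979). Kcne3, a small single-span subunit, stood at -0.28 ± 0.12 (adjusted p = 0.00699). Its arrays ran from -0.79 to 0.26 and 1 of 6 was above 0, and without set numbers its adjusted p was 0.224. Kcne2 (-0.11 ± 0.048) and Kcns1 (0.092 ± 0.15) were not called.

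Inward rectifiers hold the resting potential near that of potassium, and two-pore domain channels carry a background leak. Of 12 and 7 measured genes, 0 were called by limma, and 0 and 1 had an unadjusted p below 0.05. Over all features 29.0% were called and 38.4% had an unadjusted p below 0.05. Kcnj2, the rectifier described in resting macrophages, read from -0.23 to 0.38 and stood at 0.044 ± 0.080 (adjusted p = 0.559), below 0 on the 3 arrays with treated RNA in Cy5 and above 0 on the other 3. Kcnj8 (-0.12 ± 0.15) and Kcnj12 (-0.095 ± 0.023) had the largest changes among the rectifiers, and Kcnk3 (0.15 ± 0.12) and Kcnk5 (-0.089 ± 0.11) among the leak channels. Single probes of 3 of these genes were called, Kcnk3 at 0.31 (adjusted p = 0.00262), Kcnj8 at -0.29 (adjusted p = 0.0115) and Kcnj4 at 0.20 (adjusted p = 0.0200), while their other probes were not. No probe carried the symbols Kcnk6 or Kcnk13, the leak channels linked to the inflammasome. Acid-sensing, cyclic nucleotide-gated and HCN channels, with 7 genes measured, had 0 calls as well and 0 at an unadjusted p below 0.05, led by Cnga3 (-0.091 ± 0.11) and Cngb3 (0.089 ± 0.024). Hvcn1, the voltage-gated proton channel of phagocytes, had a value on 1 array only and no change could be given. Trpm2 and Clic1 had no probe by symbol.

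The 25 channel genes without a value on all 6 arrays were accounted for separately. Grik3, Kcnc2, Kcng4 and Trpc7 were listed at exactly 0 on every array. When 2 measured sets were enough for a feature to enter the fit, 12 of the 25 could be given a change, between -0.16 and 0.094, and 0 were called by limma. Of the 147, Grina, Grid2ip, Trpc4ap, Kcnmb4os1 and Kcnmb4os2 name associated proteins or antisense transcripts and no channel subunit, and without them 19 of 142 were called.

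The dye part of each ratio, the mean of the unturned values in which the treatment cancels, was larger than the change itself in 110 of 147 channel genes (74.8%), compared with 49.3% of all features. Its median size was 0.115 among channel genes and 0.088 over all features. In the limma test of the dye part 0 channel genes and 0% of all features were called, the lowest adjusted p among channel genes being 0.166, although 38 of the 147 had an unadjusted p below 0.05, against 2630 of the 11364 features, and 9 were called when the 6 arrays were fitted without set numbers. Kcnj15, Gabrb2 and Kcnj12 lay far from 0 on the dye axis and near it on the treatment axis, at dye parts of -0.51, 0.40 and -0.39. Kcnj15 and Gabrb2 were singled out after their values were seen. In 21 channel genes (14.3%) the orientations had opposite signs on all arrays, against 1473 of the 11364 features, a share close to it.

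**Figure D3:**
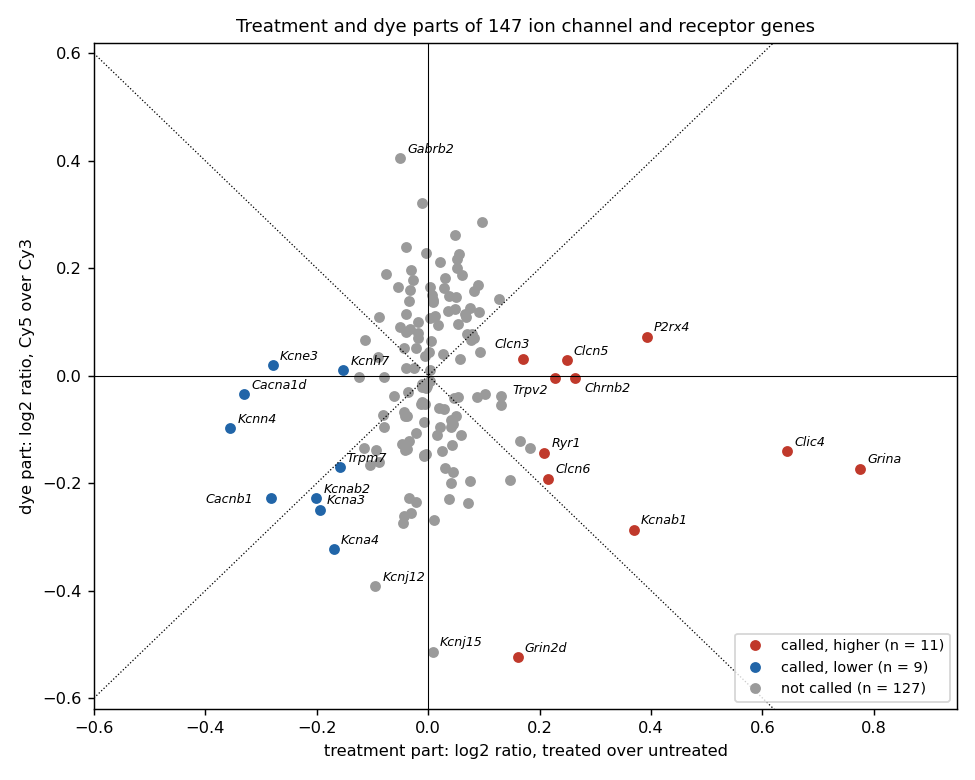
Log2 treatment part (horizontal axis) and dye part (vertical axis) of the 147 channel genes, with dotted lines where both are of equal size. Grina, Clic4 and P2rx4 lie to the right with dye parts smaller than their change, while Grin2d, Kcnj15, Kcnj12 and Gabrb2 lie above or below the centre.

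Genes that work with the channels were taken from 8 lists outside the symbol rule, and 29 of 84 measured were called (34.5%), 14 higher and 15 lower, against 29.0% of all features called. In extracellular nucleotide signalling 2 of 14 rose and 5 fell. P2ry12, an ADP receptor, fell to -0.68 ± 0.20 (adjusted p = 4.02e-04), with arrays from -0.99 to -0.34, all below 0. Panx1, the pannexin that lets ATP out of the cell, fell to -0.45 ± 0.10 (adjusted p = 5.66e-04), also below 0 on all 6 arrays. P2ry2, a receptor for ATP and UTP, rose by 0.38 ± 0.061 and P2ry6, a UDP receptor, by 0.30 ± 0.062, while the adenosine receptor gene Adora3 stood at 0.13 ± 0.14. Without set 1 Adora3 was called at 0.21 (adjusted p = 0.0335).

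The inflammasome and interleukin-1 list had 5 rises and 1 fall among 8 (75.0% called, against 29.0% of all features). Whether channel activity had a part in these changes was not tested. Il1b, chosen as a known responder, rose by 4.17 ± 0.055 and Il1a by 3.16 ± 0.41. Tnf, the other known responder, lies outside the list and rose by 2.08 ± 0.18. Nek7, the kinase that binds NLRP3 after potassium efflux, fell to -0.46 ± 0.069 (adjusted p = 2.70e-04), and Pycard, the adaptor, stood at 0.15 ± 0.089 and was called only after quantile normalization among the scalings tried (0.16, adjusted p = 0.0479). The NADPH oxidase list gave 2 rises among 6. Cybb, the oxidase's electron-carrying subunit, rose by 1.22 ± 0.094 and Rac2 by 0.32 ± 0.078, and its partner subunit Cyba stood at 0.052 ± 0.029.

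Among calcium release channels, pumps and exchangers 1 of 8 rose and 2 fell (37.5% called, against 29.0% of all features). Atp2b1, the plasma membrane calcium pump, rose by 0.39 ± 0.17 (adjusted p = 0.00402). All 6 of its arrays were above 0, but its orientations differed, with means of 0.15 for treated RNA in Cy5 and 0.62 in Cy3. From the first of these orientations alone Atp2b1 was not called (adjusted p = 0.233). Its call was also lost once zeros counted as measurements (adjusted p = 0.0878). Itpr3, an IP3-gated release channel, fell to -0.36 ± 0.037 (adjusted p = 6.15e-04), between -0.45 and -0.25 on the 6 arrays, and Atp2c1, a Golgi pump called at -0.27, had its orientations on opposite sides of 0. In the calcineurin, calmodulin and NFAT list, 2 of 15 rose and 3 fell (33.3% called, against 29.0% of all features). The kinase gene Camk2d was at 0.55 ± 0.073 and the calmodulin gene Calm2 at -0.30 ± 0.027. All 6 arrays of Calm2 were below 0, but its small SD hid a gap between orientations. The means were -0.53 for treated RNA in Cy5 and -0.078 in Cy3. With treated RNA in Cy3 alone Calm2 was not called (adjusted p = 0.377). Nfatc3 stood at -0.25 ± 0.23 and was called without set 2 (-0.31, adjusted p = 7.07e-04).

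Other channels and pores outside the rule had 1 rise and 3 falls among 19 (21.1% called, against 29.0% of all features). Aqp9, a water and glycerol channel of leukocytes, rose by 0.92 ± 0.26 (adjusted p = 2.47e-04), more than any gene within the rule. Mcoln1, the lysosomal cation channel, was called at -0.44 ± 0.43 (adjusted p = 0.0462), but set 2 lay near 0 in both orientations and the call was lost without set 1 (-0.24, adjusted p = 0.0813) or set 3 (-0.43, adjusted p = 0.190). Gja1 and Tmem175 fell, and the mitochondrial pore gene Vdac2 stood at -0.10 ± 0.016. In the pump and cation transport list 1 of 9 rose and 1 fell, with the potassium-chloride cotransporter gene Slc12a4 at 0.52 ± 0.039 (adjusted p = 9.76e-05) and the sodium-potassium-chloride cotransporter gene Slc12a2 at -0.16 ± 0.046. Slc12a2 lost its call without any 1 of the sets (adjusted p from 0.0514 to 0.166), and Fxyd5 stood at -0.13 ± 0.045. Of 5 metabotropic receptors of the same transmitters 0 were called by limma and 0 had an unadjusted p below 0.05, Chrm4 having the largest change (-0.062 ± 0.14).

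**Figure D4:**
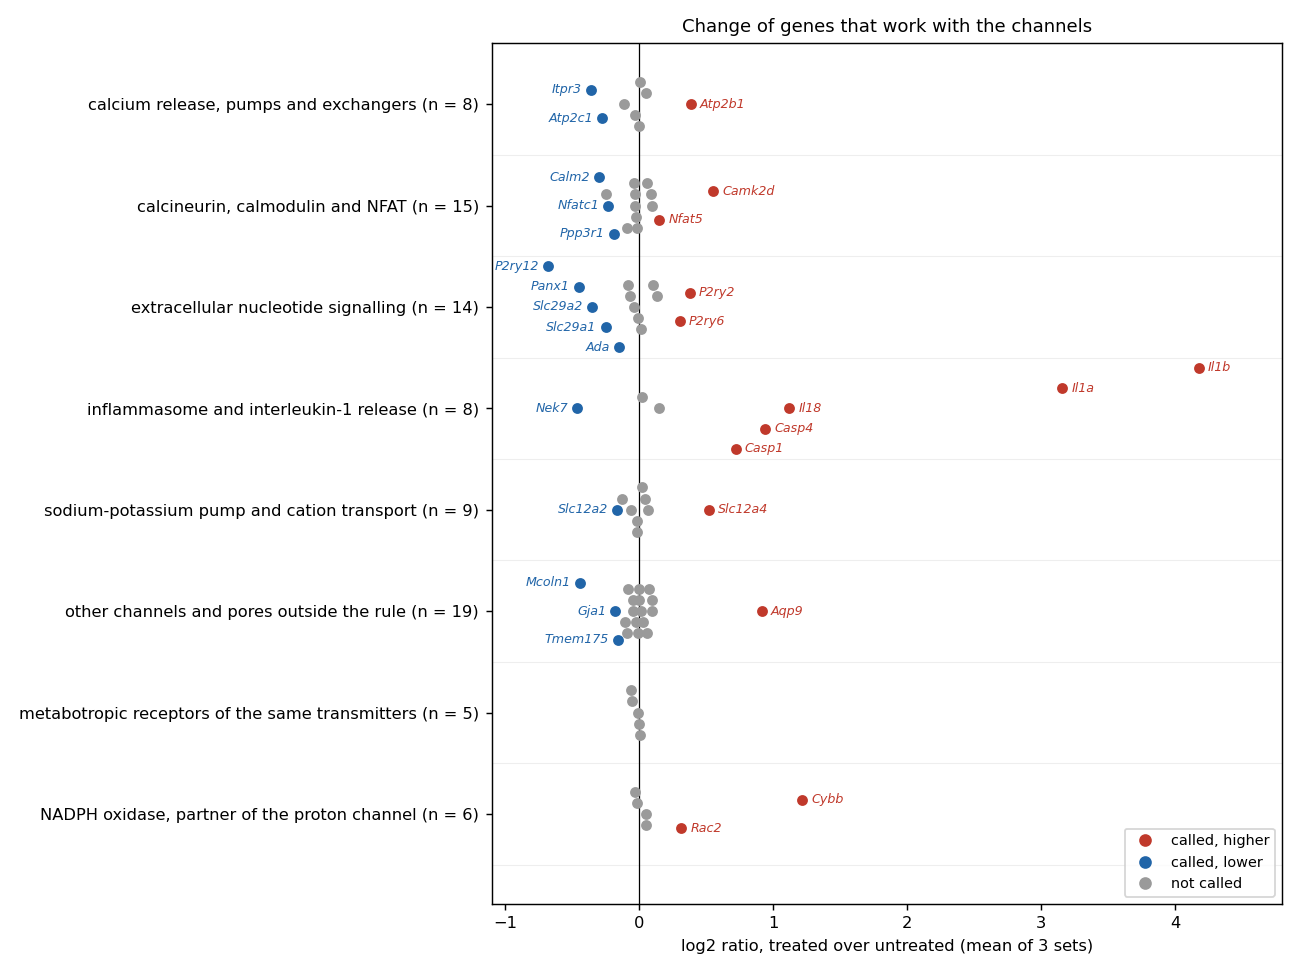
Log2 ratios of treated over untreated RNA (horizontal axis, mean of 3 sets) for genes of 8 lists that work with the channels (vertical axis), coloured as called higher, called lower or not called. Il1b and Il1a lie farthest to the right, and P2ry12 farthest to the left.

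Markers of cell types were read in the same fit. Of 11 macrophage markers 5 were higher and 2 lower, and of 10 neuron markers 0 were called by limma and 2 had an unadjusted p below 0.05. Single genes of the T cell (1 of 9), B cell (1 of 7) and fibroblast (1 of 8) lists and 3 of 6 osteoclast markers were higher, and the muscle list of 10 had 1 higher and 1 lower. Over all features 29.0% were called (1586 higher and 1708 lower of 11364). The macrophage and osteoclast lists had larger shares called, and the neuron, T cell, B cell, fibroblast and muscle lists smaller ones. Whether any list differed from all features was not tested. Ratios cannot show whether any marker was present, and the part of other cell types in the channel results was not tested. Nonzero probes numbered 14195 to 15027 per array, and the 6 arrays limit the precision.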

How the data were processed

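Total RNA of treated and untreated RAW 264.7 cells was compared on 6 two-colour arrays. Each deposited value is the log2 ratio of a probe on 1 array, taken as Cy5 over Cy3 since Cy5 is called the test channel in the labels. Scanner, background correction and normalization are not given in the sources used here. Arrays of opposite orientation correlated from -0.775 to -0.397 as deposited, so the sign was turned on arrays whose treated RNA was in Cy3. Exact 0 was taken as not measured, and 13415 probes with values on all 6 arrays were kept. Symbols came from the platform's annotation, in which 13738 probes have 1 symbol, 52 several and 2491 none, and 13694 matched the GRCm38.p6 gene table by Entrez ID. A channel probe with several symbols was left out (1 probe). Probes of a gene were averaged, which gave 11364 features (9574 named genes and 1790 unnamed probes).

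The 3 set means were tested against 0 with limma 3.58.1 in R 4.3.3 (lmFit and eBayes, two-sided, Benjamini-Hochberg over all features), after the scripts were tested on simulated data. The gene families and lists were proposed with earlier results of these data known. Named genes are the 12 called members with the largest change, up to 3 called and 2 uncalled per role, up to 2 called and 1 uncalled per list, members with probes called in opposite directions, and 19 genes of macrophage interest plus Il1b and Tnf whatever their values. Alternatives covered normalization, the use of set numbers, each orientation, each set, zeros, single probes, the variance model and thresholds. Leaving out symbols of associated proteins and antisense transcripts was added after seeing the data. Promoter motifs were searched on both strands. No intensities or probe coordinates were used here.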

Additional observations from a re-analysis of the deposited data

Results flagged for a closer look

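In 7 of the named channel genes the arrays of both dye orientations lay on opposite sides of 0 in every set, so that their treatment change and their dye part separate. The dye part, as the mean log2 ratio of Cy5 over Cy3 with the treatment cancelled, was -0.52 for the NMDA receptor gene Grin2d, -0.39 for the inward rectifier gene Kcnj12, -0.24 for the kainate receptor gene Grik2 and -0.18 for the inward rectifier gene Kcnj2. It was 0.16 for the nicotinic receptor gene Chrnb3, 0.23 for the TRP channel gene Trpc5 and 0.29 for the GABA receptor gene Gabrr1. With treated RNA in Cy5 the means were -0.36 for Grin2d and 0.38 for Gabrr1, and with treated RNA in Cy3 they were 0.68 and -0.19. The difference between orientations was tested as the dye part, and in the limma test 0 of these genes passed (adjusted p from 0.166 to 0.180). All 7 had an unadjusted p below 0.05. Since the genes were picked by the signs of these same values, low unadjusted p-values are no separate support for a dye part. Only Grin2d among them had a called treatment change.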

How the results depend on the processing

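The count of 20 called channel genes fell to 12 with treated RNA in Cy5 alone, 12 with exact zeros kept as values (172 genes tested), 12 at an adjusted p below 0.01 and 0 against a 1.5-fold change. It was 10 when only genes with the same sign in both orientations of every set were kept (10 tested) and 31 of 212 when single probes were tested. Leaving out 1 set gave 15 to 18 channel genes, 2618 to 2943 of all features, 23 to 25 of the partner genes and 0 dye calls each time. All features called were 1825 with treated RNA in Cy5 alone, 2127 at an adjusted p below 0.01 and 296 against a 1.5-fold change, which left 5 partner genes. With treated RNA in Cy3 alone Kcnab2 turned to 0.027, Kcnj12 to 0.30 (adjusted p = 0.0271), Kcna3 to 0.054, Kcna4 to 0.15 and Trpm7 to 0.011, and with treated RNA in Cy5 alone Grin2d turned to -0.36. The causes were not tested. Besides those 6 reversals, single named genes under single alternatives kept their side of the threshold in 1204 cases, lost the call in 116 and gained it in 26. In 40 of the 1204 cases an uncalled gene changed sign, among 26 genes.

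In the values as deposited, deviations of same-numbered arrays from their orientation means correlated at 0.484 and 0.512 in sets 1 and 2. In set 3 the correlation was 0.0203, and between arrays of different sets it ran from -0.527 to 0.122. Deviations cancel over the arrays of an orientation, so values between sets are tied to those within sets and are no separate comparison. Because signs were not turned here, a positive value marks a shift towards the same dye, which cancels in the set mean. It does not show that both arrays of a set held the same RNA. The set means reported here nevertheless use the set numbers, and their calls equal those with the set number as a fixed replicate block, 20 channel genes and 3294 features. With no replicate block there were 14 channel genes (10 higher, 4 lower), 3147 features and, for the dye part, 9 channel genes. As a random replicate block (correlation 0.1538) it gave 15. Median centring gave 20, scaling 18 and quantile normalization 20.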

Other observations

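Probes of 3 channel genes held large values of the same sign in both orientations as deposited, so that the log2 ratio followed the dye and not the treatment. They were picked after their values were seen, as the probes with every measured value beyond 1 in size and a value on at least 1 array of each orientation. A probe of Gabrr1 ran from -3.04 to -2.34 on the 5 arrays with a value. A probe of Kcnj12 read -3.95 and -3.75 in set 1 and was at exactly 0 elsewhere. A probe of Asic1 read -2.49 and -2.43 on 2 arrays of different sets. None of these probes entered the gene means, because each lacked a value on at least 1 array.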
